A study of Mus musculus with 18 samples.

Results

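The 10 genes described here encode the enzymes that cut microRNAs out of their precursors and the proteins that carry microRNAs to target messages. They are Drosha, Dgcr8, Xpo5, Dicer1, Tarbp2, Ago1, Ago2, Ago3, Tnrc6a and Tnrc6b. They were taken by symbol from the deposited table of read counts, where each of the 10 symbols had 1 row among 29112 genes. All 10 passed the filter on low counts, which left 15074 genes for testing. RNA was sequenced from cells labelled HL-1, a mouse atrial cardiomyocyte line, in 18 libraries that made 6 groups of 3. Of the 4 groups transfected in high glucose, the first received an inhibitor of miR-200a-3p and the second the negative control of that inhibitor. The third received a mimic of miR-200a-3p and the fourth the negative control of the mimic. These cells were harvested 48 h after transfection. The remaining groups had no transfected RNA in their labels: high glucose alone, and vehicle. All 6 groups came from 1 line of control genotype, and the labels use the genotype field for the transfected RNA. The sources used here do not give the glucose concentrations or the length of exposure.

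Library totals ran from 33655916 to 37928790 reads, so that 3 reads, the level a count of 0 allows, were 0.0791 to 0.0891 CPM (reads scaled to library size; counting error only). Nothing in the labels states separate cultures within a group, and the p-values therefore cover only the spread between these libraries, which may be technical. The labelled cell type was checked against 13 cardiomyocyte markers, of which 12 were in the table and 7 passed the filter. Their summed level was 30.2 to 94.9 CPM over all libraries, and Nppa and Pln were at 0 in 4 and 5 of the 6 groups. Myh6 reached at most 0.204 CPM. Tnnt2 stood at 14.2 to 79.3 CPM and Gata4 at 8.31 to 13.1 CPM over all libraries. Summed fibroblast markers reached 1050 to 12080 CPM. One mimic library, replicate 2, held 1158 CPM of 12 summed macrophage markers, against 35.0 to 67.7 CPM in the other 17 libraries. Its part in the results was not tested, and mimic results that moved when it was left out are also given without it. In bulk RNA, fewer cells of a type and less RNA per cell cannot be told apart.

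A microRNA starts as a hairpin in a longer nuclear transcript. Drosha, an RNase III enzyme, and its RNA-binding partner Dgcr8 release the hairpin, exportin 5 (Xpo5) carries it out of the nucleus, and Dicer1, a second RNase III enzyme, trims it to a short duplex with the help of Tarbp2. An Argonaute protein keeps 1 strand of the duplex and pairs it with messages through the seed at its 5′ end. The GW182 proteins, among them Tnrc6a and Tnrc6b, bind Argonaute and recruit the deadenylases that shorten the tails of those messages. A synthetic mimic enters this pathway at the Argonaute step as a ready duplex, while an inhibitor pairs with the microRNA once it is in Argonaute. In heart muscle, loss of Dicer1 is known to cause cardiomyopathy in mice.

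The sequence of the microRNA that the reagents copy or block is shown with its seed (bases 2 to 8) in capitals, from RefSeq (GRCm38.p6, chr4:156054911-156054932, minus strand).
miR-200a-3p: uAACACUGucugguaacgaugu
A message pairs with this seed where its 3′ untranslated region holds CAGTGTT (7mer-m8), AGTGTTA (7mer-A1) or both as CAGTGTTA (8mer). The letters were searched on the sense strand of the 3′ untranslated region of the canonical transcript of each gene (GENCODE M39, GRCm39), and overlapping matches were counted once as the longest form. Of the 10 genes, 8 held at least 1 match and together they held 14. Among 12905 tested genes with such a region, 27.5% held a match, and 30.9% of the 11363 genes whose regions lay within the length range of the 10 did. That range is wide and its median region was 1586 bases, so neither share is matched to the 10 genes in length. The regions of Ago3, Tnrc6b and Ago2 were 12742, 11609 and 11064 bases long, against a median of 1347 bases over all tested genes. Drosha and Tarbp2, with regions of 266 and 334 bases, held none of these letters.

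Matches in the genes called in the high glucose or the mimic comparison are printed below 5′ to 3′ on the sense strand, 22 bases each, with the seed match in capitals, because these are the members whose levels the text returns to. All lie in the last exon.
Tnrc6b site 1 (chr15:80816101-80816122, plus strand, exon 25): agccccactgactctCAGTGTT
Tnrc6b site 2 (chr15:80816655-80816676, plus strand, exon 25): tctgggagcatttaaCAGTGTT
Tnrc6b site 3 (chr15:80822114-80822135, plus strand, exon 25, 8mer): tgatactggccatgCAGTGTTA
Tnrc6b site 4 (chr15:80822525-80822546, plus strand, exon 25): tgttcagcctgtcttCAGTGTT
Ago3 site 1 (chr4:126233759-126233780, minus strand, exon 19): cagtttcatataaatAGTGTTA
Ago3 site 2 (chr4:126227923-126227944, minus strand, exon 19): gggtatggatgaattCAGTGTT
Ago2 site 1 (chr15:72975078-72975099, minus strand, exon 19): cttttataactgtccCAGTGTT
Ago2 site 2 (chr15:72974024-72974045, minus strand, exon 19, 8mer): atgaatagcccagtCAGTGTTA
Xpo5 site 1 (chr17:46554314-46554335, plus strand, exon 32): ttgtaaaggtgagctCAGTGTT
Dicer1 site 1 (chr12:104656888-104656909, minus strand, exon 27): caggtctgtactaggCAGTGTT
The other 4 matches were 2 in Dgcr8 and 1 each in Ago1 and Tnrc6a. A match is a description of these letters and not a measured site. The genes lie on 6 chromosomes in GRCm39, with Ago1 and Ago3 close together on chromosome 4 (chr4:126328805-126362498 and chr4:126225496-126323362, both minus strand). Drosha, Ago2, Tnrc6b and Tarbp2 all lie on chromosome 15.

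Scaled to length, Drosha was the most abundant of the 10 in every group. Its mean FPKM (fragments scaled to a length per gene and library size, deposited by the authors) was 29.1 to 41.6 by group. These means lay at percentiles 89.7 to 92.2 of the tested genes. Ago2, the Argonaute known for slicing targets, came next in high glucose and vehicle, at 12.5 ± 0.771 and 11.8 ± 0.676 FPKM (SD, n = 3 each). Xpo5 came next in the mimic and mimic control groups, at 11.3 ± 0.289 and 13.5 ± 0.338 FPKM. Tarbp2 was second in the inhibitor and inhibitor control groups, at 10.8 ± 0.425 and 11.2 ± 0.717 FPKM. Ago3 was lowest in every group, at 1.03 to 2.56 FPKM, except in the mimic group, where Tnrc6b stood at 1.48 ± 0.150 and Ago3 at 1.52 ± 0.146 FPKM. Dicer1 stayed between 2.65 and 4.17 FPKM. Ranks between genes depend on the length that FPKM implies, which was 16790 to 17500 bases for Ago3 and 8260 to 8585 bases for Ago1. In mean CPM, which has no length, Ago3 stood above Ago1 in the inhibitor, inhibitor control and mimic groups. It stood below Ago1 in the other groups.

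The 10 genes also differed in how far their levels moved over the 6 groups. Levels of single genes in CPM below are after TMM scaling, while summed markers and FPKM are without it. On the TMM scale, the highest group mean was 4.20 times the lowest for Xpo5, 3.33 times for Tnrc6b, 2.95 times for Dgcr8 and 2.56 times for Ago3. It was 2.00 times for Ago1, 1.63 times for Dicer1 and 1.52 times for Tarbp2. Tnrc6a, Ago2 and Drosha moved least, by 1.45, 1.40 and 1.39 times. Xpo5 and Dgcr8 were high in all 4 transfected groups and low in high glucose and vehicle. Ago1 showed the opposite order. Tnrc6b was low in the mimic and mimic control groups and higher in the other 4. Neighbours in these orders often overlapped: of the 5 neighbouring pairs of groups, 4 overlapped for Tarbp2 and for Ago2, and 3 for Dicer1, Dgcr8, Ago1, Tnrc6a and Tnrc6b. The order of the groups changed with the scaling for Dicer1, Tarbp2 and Ago2, and for Dgcr8, where high glucose and vehicle changed places without TMM scaling.

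**Figure D1:**
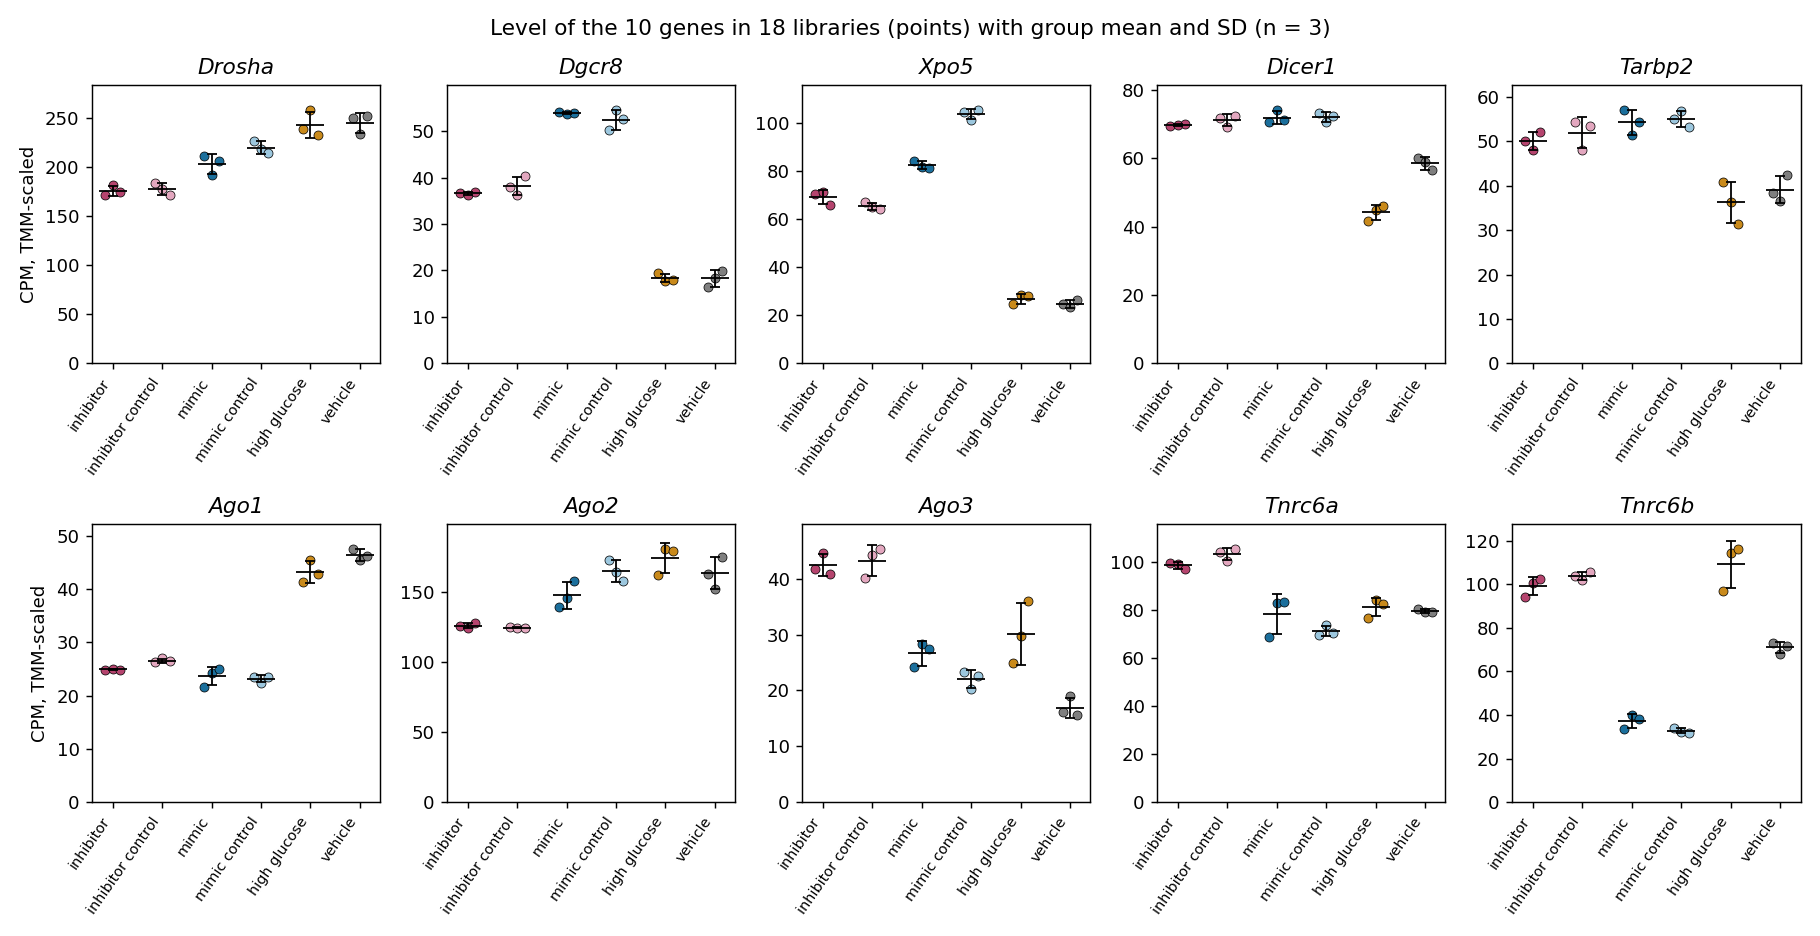
Level of each of the 10 genes (vertical axis, CPM after TMM scaling, starting at 0) in the 6 groups, with 1 point per library, a line at the mean of 3 libraries and bars of 1 SD. Xpo5 stood at 65.3 to 104 CPM on average in the 4 transfected groups, against averages of 26.9 CPM in high glucose and 24.7 in vehicle, while Tnrc6b was lowest in the mimic and mimic control groups.

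High glucose was first compared with vehicle in cells without transfected RNA. Dicer1 was lower in high glucose, and Ago3 and Tnrc6b were higher. The other 7 genes did not pass the test. The 3 calls among 10 stand beside 24.2% of all 15074 genes called in this comparison (12.0% higher, 12.2% lower), so the share called was near the background. The same 3 genes were the only members in which the libraries of the groups did not overlap, which held for 34.6% of all genes.

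Dicer1 stood at 41.7, 44.8 and 46.0 CPM in the high glucose libraries, against 60.1, 58.9 and 56.5 CPM in the vehicle libraries. All 3 high glucose libraries lay below all 3 vehicle libraries. The log2 fold change was -0.41 (SE 0.0436), with an adjusted p of 1.09e-06 by edgeR's quasi-likelihood test with Benjamini-Hochberg adjustment, as for all adjusted p below. Ago3, an Argonaute that shares most of its microRNAs with Ago1 and Ago2, stood at 24.9, 29.7 and 35.9 CPM in high glucose and at 16.1, 19.0 and 15.7 CPM in vehicle. The lowest high glucose library was above the highest vehicle library, but the high glucose libraries differed among themselves by more than the vehicle libraries did. Its log2 fold change was 0.84 (SE 0.106), a 1.79-fold difference with an adjusted p of 7.52e-06. Tnrc6b stood at 96.7, 114 and 116 CPM in high glucose, against 73.2, 68.1 and 71.7 CPM in vehicle. Every high glucose library was higher, with a log2 fold change of 0.62 (SE 0.0661) and an adjusted p of 9.89e-07. All 3 genes hold matches to the seed of miR-200a-3p, 1 in Dicer1, 2 in Ago3 and 4 in Tnrc6b. Dgcr8, Xpo5, Ago1, Ago2 and Tnrc6a, which were not called in this comparison, hold matches too. The part of these matches in the results was not tested.

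The nuclear steps showed no call. Drosha was measured at 238, 257 and 232 CPM in high glucose and at 249, 233 and 251 CPM in vehicle, and Dgcr8 at 19.4, 17.8 and 18.03 CPM in high glucose and at 16.4, 18.4 and 20.0 CPM in the vehicle libraries. Their log2 fold changes were -0.01 and 0.01, with adjusted p of 0.912 and 0.949. Over the 7 genes without a call, the 95% intervals of the log2 fold change lay within -0.27 and 0.24, which bounds but does not exclude small differences. Xpo5 came closest, with 24.6, 28.3 and 27.9 CPM in high glucose and 24.5, 23.3 and 26.2 CPM in vehicle. Its log2 fold change was 0.13 (adjusted p = 0.118), and 0.19 (adjusted p = 0.0157) without high glucose replicate 1. Ago1 at -0.10 and Ago2 at 0.09 did not pass either, with adjusted p of 0.162 and 0.284. Tarbp2 and Tnrc6a gave log2 fold changes of -0.11 and 0.03, with adjusted p of 0.338 and 0.806.

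The mimic was compared with its own negative control, both in high glucose. Xpo5 was lower with the mimic, and so, by a smaller and less stable difference, was Ago2. No member was called higher. The 2 calls among 10 stand beside 33.7% of all genes called (15.8% higher, 18% lower), a larger share than among the members. Of all 5087 calls, 2375 were higher, against 2896 of 4725 and 3029 of 4841 with limma on FPKM, so the split of directions differed between analyses. Without mimic replicate 2, 1 member and 4011 of all genes were called.

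Xpo5 stood at 84.3, 81.8 and 81.1 CPM in the mimic libraries and at 104, 101 and 105 CPM in the mimic control libraries. Each mimic library lay below each control library. The log2 fold change was -0.33 (SE 0.0513, adjusted p = 9.86e-05), and it was called in all 14 alternative analyses at -0.36 to -0.24. Without mimic replicate 2 it was -0.33 (adjusted p = 0.000240). Its single seed match is the 7mer printed above. Ago2 stood at 139, 146 and 158 CPM with the mimic, against 173, 164 and 158 CPM in its control, so that the highest mimic and the lowest control library were level. Its 2 seed matches, 1 of them an 8mer, are printed above. The log2 fold change of Ago2 was -0.16 (SE 0.0572, adjusted p = 0.0355). The call was lost in 8 of 14 alternatives, among them without mimic replicate 1 (adjusted p = 0.121), mimic replicate 2 (0.0689), mimic control replicate 1 (0.134) or mimic control replicate 2 (0.0569).

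The scaffolds Tnrc6a and Tnrc6b and the Argonaute Ago3 had higher means with the mimic without passing the test. Ago3 was at 24.2, 28.4 and 27.4 CPM in the mimic libraries and at 23.3, 20.2 and 22.6 CPM in the control libraries, which did not overlap (log2 fold change 0.27, adjusted p = 0.0520). Tnrc6b was at 33.5, 40.0 and 38.1 CPM with the mimic, against 34.2, 32.4 and 31.8 CPM in its control (0.18, adjusted p = 0.0551). Tnrc6a was at 68.7, 83.1 and 83.4 CPM with the mimic and at 69.6, 73.8 and 70.4 CPM in its control (0.14, adjusted p = 0.0791). Mimic replicate 1 was the lowest mimic library for all 3 genes, and without it all 3 were called higher, with adjusted p of 0.0336 for Ago3, 0.0151 for Tnrc6b and 0.00272 for Tnrc6a. Without mimic replicate 2 the log2 fold changes were smaller, at 0.22 for Ago3, 0.12 for Tnrc6b and 0.085 for Tnrc6a (adjusted p = 0.142, 0.268 and 0.361), and without mimic replicate 3 that of Tnrc6a was 0.079. Of 14 alternatives, 8 called Ago3, 5 called Tnrc6b and 4 called Tnrc6a. Tnrc6b holds 4 seed matches, the most of the 10 genes, Ago3 holds 2 and Tnrc6a 1. The part of the matches in these levels was not tested. Drosha was at 211, 192 and 206 CPM with the mimic and at 226, 218 and 214 CPM in its control (-0.11, adjusted p = 0.0876), also without overlap. Without mimic replicate 2 its value was -0.083 (adjusted p = 0.301). Drosha, Xpo5 and Ago3 were the 3 members whose groups did not overlap, against 44.8% of all genes. Dgcr8, Tarbp2, Ago1 and Dicer1 had log2 fold changes of 0.04, -0.02, 0.03 and -0.00. For these 4 genes the 95% intervals lay within -0.18 and 0.16. The signs of Dicer1 and Tarbp2 turned with upper quartile scaling and with limma on FPKM.

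The inhibitor was compared with the negative control of the inhibitor. None of the 10 genes passed, beside 0.00% of all genes called by edgeR's quasi-likelihood test. At an unadjusted p under 0.05, 447 of 15074 genes but 0 of the 10 members were found, and DESeq2 and limma on FPKM likewise called 0 genes. Without the filter on low counts 26 genes were called, and with the compared groups alone 1 gene, none of them a member. The largest difference among members was 0.09 on the log2 scale. Dicer1, as an example, stood at 69.5, 69.8 and 70.1 CPM with the inhibitor and at 71.9, 69.2 and 72.3 CPM in its control. Tnrc6b stood at 94.3, 101 and 103 CPM with the inhibitor, against 104, 102 and 105 CPM in its control. Ago1 (24.9, 25.0 and 24.9 CPM with the inhibitor, against 26.3, 27.0 and 26.5 CPM in its control) and Tnrc6a (99.7, 99.2 and 97.1 CPM against 104, 101 and 106 CPM) were lower in every inhibitor library. These were 2 of 10 genes without overlap, beside 10.6% of all genes, and the smallest unadjusted p of a member was 0.0995 for Ago1. The 95% intervals of the 10 log2 fold changes lay within -0.23 and 0.19, the widest being that of Ago3.

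The same model tested the mimic effect minus the inhibitor effect. Xpo5 was called, at -0.41 on the log2 scale (SE 0.0730, adjusted p = 0.00170), beside 13.2% of all genes (4.63% higher, 8.59% lower). It was 70.3, 71.2 and 66.0 CPM with the inhibitor, against 66.9, 64.8 and 64.1 CPM in its control, a log2 fold change of 0.08 that was not called. The difference kept its call in all 20 alternatives, at -0.45 to -0.32. The other 9 genes did not pass, and the nearest were Tnrc6b at 0.25 (adjusted p = 0.0976) and Tnrc6a at 0.21 (adjusted p = 0.105). Ago2 at -0.18 and Ago3 at 0.30 had adjusted p of 0.155 and 0.180. Without mimic replicate 2, Tnrc6b, Tnrc6a and Ago3 were at 0.18, 0.15 and 0.24 (adjusted p = 0.239, 0.264 and 0.284).

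**Figure D2:**
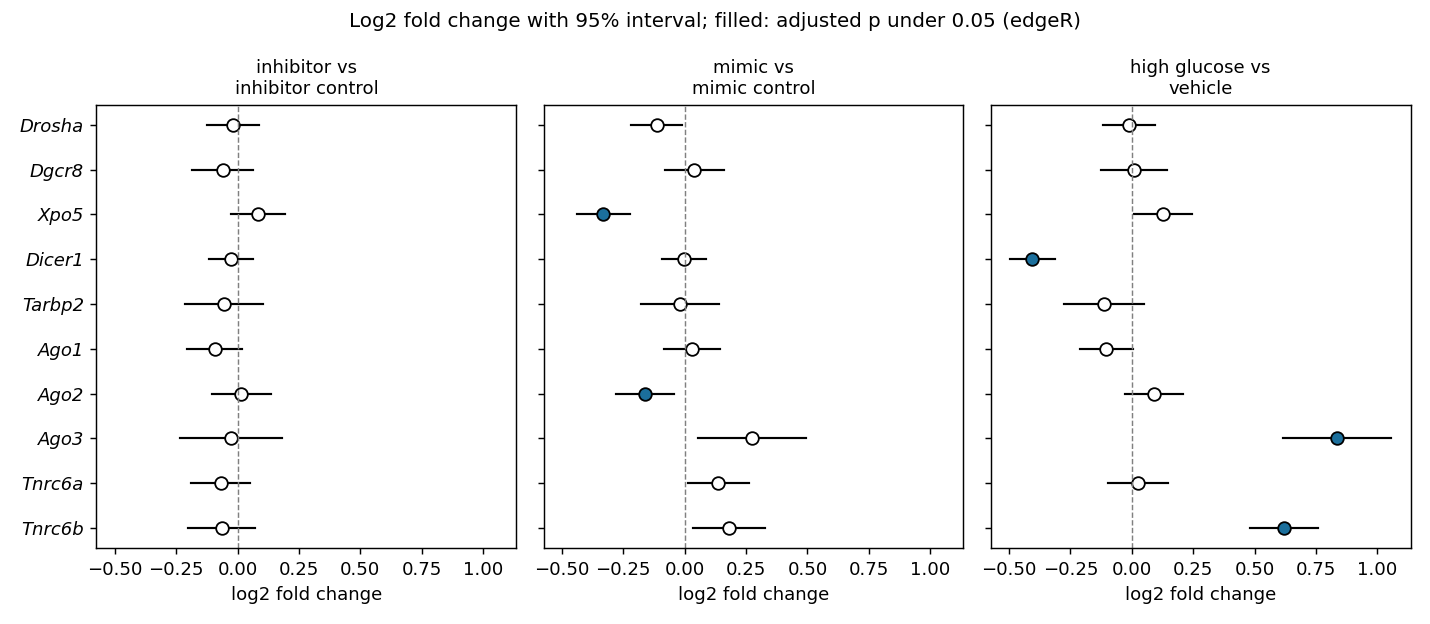
Log2 fold change of each of the 10 genes (horizontal axis) for inhibitor over inhibitor control, mimic over mimic control and high glucose over vehicle. Bars are 95% intervals derived from edgeR's F statistic, and filled points are called genes. Dicer1 (-0.41), Ago3 (0.84) and Tnrc6b (0.62) stand apart in high glucose, Xpo5 (-0.33) and Ago2 (-0.16) in the mimic comparison, and all inhibitor points lie within 0.1 of 0.

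Much larger differences separated the negative controls from high glucose alone, and from each other. Both controls share the high glucose libraries that were also set against vehicle. Transfection, the control RNA itself and the preparation of the cultures cannot be told apart here. Summed fibroblast markers moved with these groups: they were 2450 to 2586 CPM in the inhibitor control, 1059 to 1093 CPM in the mimic control and 10941 to 12080 CPM in high glucose. Summed cardiomyocyte markers were 75.5 to 94.9 CPM, 30.2 to 32.1 CPM and 53.6 to 70.2 CPM in the same groups. The part of these differences in the results was not tested.

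Between the mimic control and high glucose, 9 of the 10 genes were called, 4 higher and 5 lower, beside 78.9% of all genes (39.0% higher, 39.9% lower), so the share among members was near the background. The libraries of the groups did not overlap for the 9 called genes, beside 80.4% of all genes. The 4 higher ones were Xpo5, Dgcr8, Dicer1 and Tarbp2, the processing genes other than Drosha. Xpo5 stood at 104, 101 and 105 CPM in the mimic control, against 24.6, 28.3 and 27.9 CPM in high glucose, 3.85-fold higher with no overlap (log2 fold change 1.94, SE 0.0547, adjusted p = 1.75e-17). Dgcr8 stood at 50.3, 54.5 and 52.5 CPM in the mimic control and at 19.4, 17.8 and 18.03 CPM in high glucose, a 2.85-fold difference (log2 fold change 1.51, adjusted p = 6.15e-15). Dicer1 and Tarbp2 were 1.63-fold and 1.52-fold higher, at log2 fold changes of 0.71 and 0.60. Tnrc6b moved most in the other direction, at 34.2, 32.4 and 31.8 CPM in the mimic control, against 96.7, 114 and 116 CPM in high glucose. It was 3.32-fold lower (log2 fold change -1.73, SE 0.0695, adjusted p = 4.92e-15).

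Ago1 was lower too, at 23.5, 22.4 and 23.6 CPM in the mimic control and at 41.4, 45.4 and 42.9 CPM in high glucose (log2 fold change -0.90, adjusted p = 2.94e-12). Ago3 (-0.45) and Tnrc6a (-0.19) were lower by less. Drosha was 226, 218 and 214 CPM in the mimic control, against 238, 257 and 232 CPM in high glucose (-0.15, adjusted p = 0.0120). That call was lost without high glucose replicate 2 (-0.09, adjusted p = 0.110) or without mimic control replicate 3 (-0.12, adjusted p = 0.0741). Ago2 was not called (-0.08, adjusted p = 0.223), although limma on log2(FPKM + 1) called it at -0.22, on a scale where the median of all genes shifted by -0.16.

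Between the inhibitor control and high glucose, 9 of the 10 genes were again called, 6 higher and 3 lower, beside 79.5% of all genes (40.1% higher, 39.3% lower). The same 9 genes did not overlap between the groups, beside 80.7% of all genes. Xpo5 stood at 66.9, 64.8 and 64.1 CPM in the inhibitor control and at 24.6, 28.3 and 27.9 CPM in high glucose (2.42-fold, log2 fold change 1.28, adjusted p = 2.00e-14). Dgcr8 was 2.08-fold higher, at 37.9, 36.3 and 40.4 CPM in the inhibitor control, against 19.4, 17.8 and 18.03 CPM in high glucose. Dicer1 (0.69), Tarbp2 (0.52), Ago3 (0.52) and Tnrc6a (0.35) were higher as well. Ago1 (-0.70), Ago2 (-0.48) and Drosha (-0.45) were the 3 lower genes. Ago2 stood at 125, 124 and 124 CPM in the inhibitor control, against 162, 181 and 179 CPM in high glucose, with no overlap. Tnrc6b had 104, 102 and 105 CPM in the inhibitor control and 96.7, 114 and 116 CPM in high glucose, which overlapped (-0.07, adjusted p = 0.315). Without high glucose replicate 1 it was called lower (-0.16, adjusted p = 0.0212).

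The inhibitor control differed from the mimic control in 8 of the 10 genes, 4 higher and 4 lower, beside 74.2% of all genes (38.5% higher, 35.7% lower). The 8 called genes did not overlap, beside 78.1% of all genes. Both are negative controls, given in high glucose. Tnrc6b stood at 104, 102 and 105 CPM in the inhibitor control, against 34.2, 32.4 and 31.8 CPM in the mimic control, 3.16-fold higher (log2 fold change 1.66, SE 0.0695, adjusted p = 4.62e-14). Ago3 stood at 40.1, 44.3 and 45.3 CPM in the inhibitor control and at 23.3, 20.2 and 22.6 CPM in the mimic control (1.96-fold, 0.97). Tnrc6a (0.54) and Ago1 (0.20) were the other higher genes. Xpo5 (-0.67), Dgcr8 (-0.46), Ago2 (-0.40) and Drosha (-0.30) were lower in the inhibitor control. Dicer1 (-0.02, adjusted p = 0.710) and Tarbp2 (-0.08, adjusted p = 0.337) were not called. For Dicer1 the sign turned with limma on log2(FPKM + 1) and log2(FPKM + 0.1), to 0.09 and 0.11 with adjusted p of 0.0367 and 0.0453. On these 2 scales the median of all genes shifted by 0.129 and 0.133, more than the values of Dicer1.

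**Figure D3:**
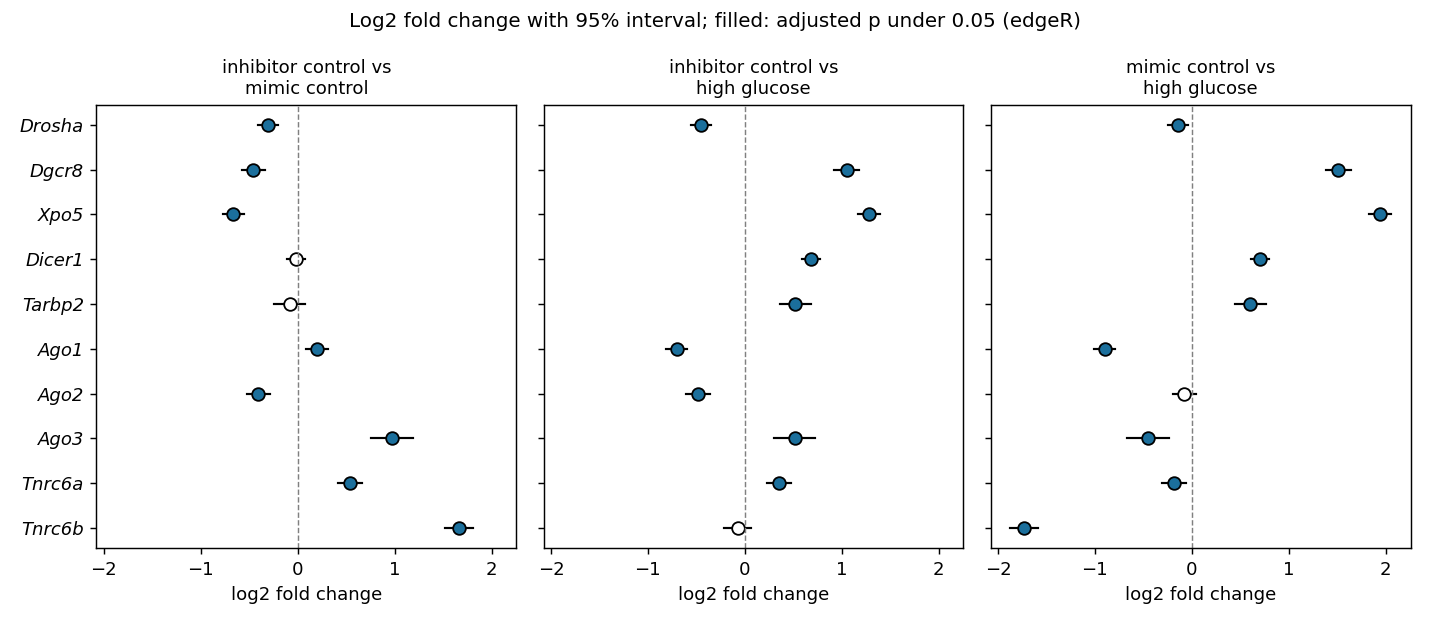
Log2 fold change of each of the 10 genes (horizontal axis) for mimic control over high glucose, inhibitor control over high glucose and inhibitor control over mimic control. Bars are 95% intervals derived from edgeR's F statistic, and filled points are called genes. Xpo5 (1.94 and 1.28) and Dgcr8 (1.51 and 1.05) lie to the right in both controls over high glucose, and Tnrc6b is at -1.73 in the mimic control but -0.07 in the inhibitor control.

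The counts of some members may hold reads of overlapping genes. The libraries were stranded per the labels' protocols, but the strand setting of the count was not given in the sources used here. Dgcr8 shares 327 exon bases with Gm49776, a protein-coding model on the same strand that moved with it (log2 fold change 1.44 in the mimic control and 0.78 in the inhibitor control over high glucose, and -0.66 between the controls). Tnrc6a shares 143 bases with the same-strand transcript Gm45846, at 0.47 in the inhibitor control over high glucose. A strand setting does not separate such genes. Dgcr8 also shares 3062 exon bases with the antisense gene Trmt2a, which was also higher in the mimic control than in high glucose (log2 fold change 0.66) but not called in the inhibitor control (0.11). Tarbp2 shares 330 bases with the antisense gene Map3k12, which was lower in both controls than in high glucose (-3.63 in the mimic control and -2.52 in the inhibitor control) where Tarbp2 was higher. Ago2 shares 219 bases with the antisense gene Chrac1, at 0.41 in the mimic control and 0.26 in the inhibitor control, where Ago2 was at -0.08 and -0.48.

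In summed FPKM, the level of the Argonaute family was similar in the 4 transfected groups, while its composition was not. These sums carry no TMM scaling, and the shares depend on the length that FPKM implies for each gene. TMM factors were 0.906 to 0.917 in the mimic control and 1.028 to 1.04 in the inhibitor control, so the closeness of the sums depends on the scale. Ago4, the remaining Argonaute and no member, stood at 0.16 to 2.19 CPM, the highest value being that of mimic replicate 2. Over Ago1 to Ago4, summed FPKM was 14.4 ± 0.0321 with the inhibitor, 14.5 ± 0.161 in its control, 14.3 ± 0.942 with the mimic, 14.3 ± 0.633 in its control, 19.7 ± 1.28 in high glucose, and 18.6 ± 0.567 in vehicle (SD, n = 3 each). Ago2 made up the largest share in every group, with the lowest mean of 60.0% ± 0.920 in the inhibitor control and the highest of 73.4% ± 1.11 in the mimic control. Ago1 held 27.2% ± 1.08 in high glucose and 31.0% ± 1.14 in vehicle, and its shares did not overlap between these groups. A share also moves with the other genes in the sum. Ago1 itself was not called between these groups (log2 fold change -0.10, adjusted p = 0.162). After TMM scaling its highest high glucose and lowest vehicle library were both at 45.4 CPM. It held 17.9% to 22.1% on average in the 4 transfected groups. Ago3 held 9.26% ± 1.26 in high glucose and 5.54% ± 0.818 in vehicle, also without overlap. Its share was 17.5% and 17.6% in the inhibitor and inhibitor control groups, against 10.6% and 8.30% in the mimic and mimic control groups. These shares are descriptions and carry no test.

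Among the GW182 genes, Tnrc6a kept the steadiest share of summed FPKM, between 42.3% and 47.3% by group mean. Tnrc6b and its relative Tnrc6c, another GW182 gene and no member, differed most. Tnrc6b made up 32.1% ± 1.38 in high glucose and 22.6% ± 0.264 in vehicle, while Tnrc6c made up 23.2% ± 1.17 in high glucose and 30.1% ± 1.09 in vehicle. In the mimic and mimic control groups Tnrc6b held only 11.9% ± 0.456 and 10.5% ± 0.499, and Tnrc6c 41.4% ± 1.93 and 47.2% ± 0.223. Tnrc6c was called lower in high glucose than in vehicle (log2 fold change -0.27, adjusted p = 0.00260) and lower with the mimic than in its control (-0.19, adjusted p = 0.0148). Tnrc6b was called higher in high glucose, while Tnrc6a there and both genes with the mimic were not called.

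**Figure D4:**
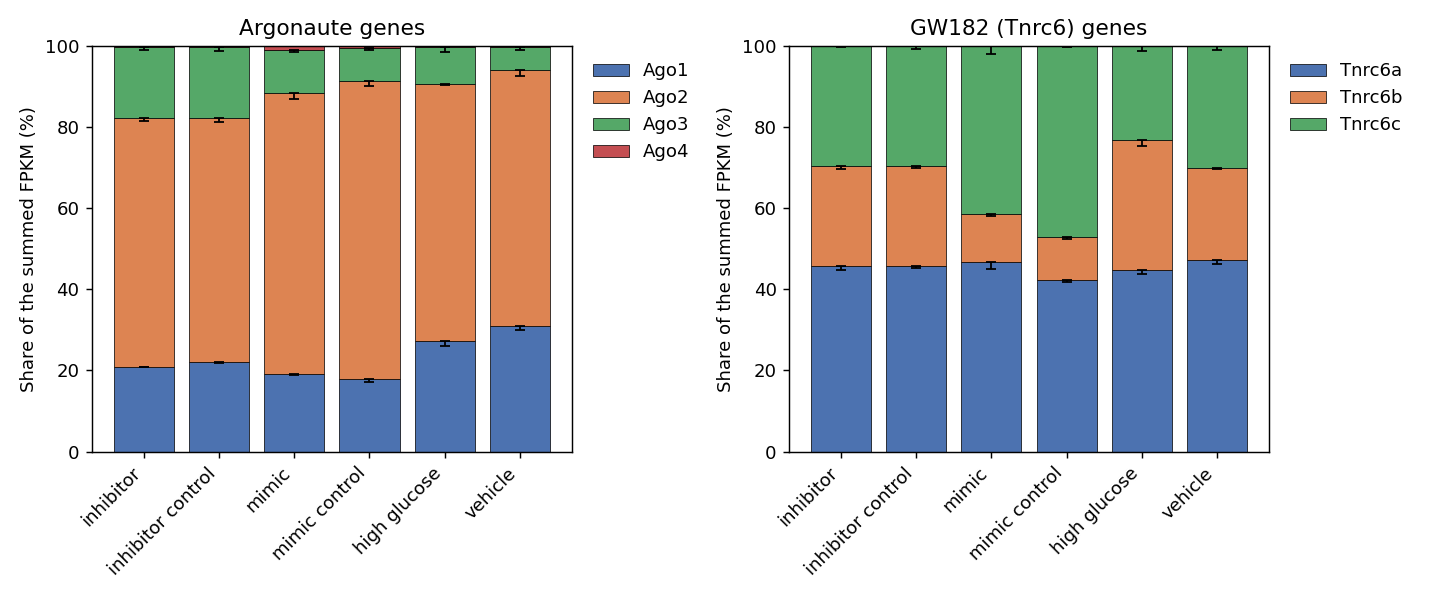
Share of summed FPKM (vertical axis, percent, stacked bars from 0) of each gene in the Argonaute family and in the GW182 family, by group, as means of 3 libraries with bars of 1 SD drawn downward from the top of each segment. Ago2 held 60.0% to 73.4% of the Argonaute sum, and Tnrc6b 10.5% to 11.9% of the GW182 sum in the mimic and mimic control groups, against 22.6% to 32.1% in the other 4.

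Genes that work beside the 10 were described from 3 lists. In high glucose, where 24.2% of all genes were called, the 20 tested partners in processing gave 1 higher and 3 lower (median log2 fold change -0.04, against -0.00 over all genes). Ddx17, a helicase that assists Drosha, was at -0.16, and Adar, which edits adenosines in double-stranded RNA, at -0.19. Ncbp2, a cap-binding subunit, was at -0.17 and Tut7, which adds uridines to precursors, at 0.16. The count of 4 depended on the fit: with the compared groups alone it was 0, with DESeq2 it was 7, and without high glucose replicate 2 or 3 it was 2. Of 21 tested Argonaute partners and loading factors, 8 were higher and 3 lower in high glucose (median 0.08). The chaperones Hspa8 and Ptges3, which help to load Argonaute, were both at 0.31, and the RNA-binding protein Fxr1 at 0.34, while the LIM protein Ajuba was at -0.37. Of 24 tested deadenylation and decay effectors, 4 were higher and 2 lower (median 0.02). The decapping enzyme Dcp2 was at 0.63, the exonuclease Xrn1 at 0.41 and the decapping cofactor Lsm1 at 0.25, against -0.59 for the deadenylase subunit Pan2.

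With the mimic, where 33.7% of all genes were called, 4 processing partners of 20 were higher and 6 lower than in its control (median -0.06). Tut4, the relative of Tut7, and the poly(A) polymerase Tent2 were at 0.36 and 0.37, and Adar and the cap-complex protein Srrt at -0.38 and -0.36. Argonaute partners gave 5 higher and 5 lower (median -0.04). The nuclease Snd1 was at -0.48, Zswim8, the ligase receptor that removes Argonaute bound to certain targets, at -0.38 and the cochaperone Stip1 at -0.31, while the RNA-binding protein Fmr1 was at 0.45. Decay effectors gave 6 higher and 5 lower (median 0.03), with the decapping scaffold Edc4 at -0.47, the CCR4-NOT subunit Cnot3 at -0.27 and the deadenylases Cnot6 and Cnot6l at 0.35 and 0.32. The 11 calls among decay effectors became 6 without mimic replicate 3. Without mimic replicate 2, the 3 lists gave 9, 9 and 8 calls, and Adar, Srrt, Tut4, Tent2, Snd1, Zswim8, Stip1, Fmr1, Edc4, Cnot3, Cnot6 and Cnot6l were all among them. The inhibitor called 0 genes of the 3 lists, and the 2 genes with the smallest p in each, Hnrnpa1 and Prkra, Hspa8 and Tnrc6c, and Lsm1 and Cnot7, lay at -0.08 to 0.11. The mimic effect minus the inhibitor effect called 5 of 20 processing partners, 4 of 21 Argonaute partners and 2 of 24 decay effectors, beside 13.2% of all genes, with the smallest adjusted p among the named genes for Tut7 at 0.28, Snd1 at -0.47 and Edc4 at -0.48. The 5 processing partners became 2 without inhibitor control replicate 2 and 3 without inhibitor control replicate 3. The 2 decay effectors became 1 without any single inhibitor library, without mimic replicate 1 or 3, without any single mimic control library or without inhibitor control replicate 2 or 3, and 4 with no filter or 5 with the compared groups alone.

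In the negative controls, where 78.9% and 79.5% of all genes were called in the mimic control and the inhibitor control, processing partners stood mostly above high glucose. The mimic control gave 15 higher and 3 lower of 20 (median 0.78, against 0.01 over all genes) and the inhibitor control 15 higher and 4 lower (median 0.75, against 0.04). Srrt was at 3.28 in the mimic control and 2.86 in the inhibitor control, the splicing factor Srsf3, which binds precursors, at 2.51 and 2.59, and Ddx17 at 1.79 and 1.65. Erh, which binds Dgcr8, was at 2.12 in the mimic control. Dgcr8 and Xpo5 moved in the same direction as these partners, and Drosha did not. Argonaute partners were split, with 13 higher and 6 lower in the mimic control (median 0.44) and 10 higher and 8 lower in the inhibitor control (median 0.13). Mov10, a helicase that accompanies Argonaute, was at -3.08 in the mimic control and -2.33 in the inhibitor control. Decay effectors gave 16 higher and 4 lower (median 0.34) in the mimic control and 13 higher and 5 lower (median 0.30) in the inhibitor control. Xrn1 was at -0.90 in the mimic control, and Cnot6 at 1.52 in the inhibitor control. Between the inhibitor control and the mimic control, 74.2% of all genes were called (38.5% higher, 35.7% lower). There the 3 lists, with 20, 21 and 24 genes tested, gave 6 higher and 10 lower, 5 higher and 11 lower, and 9 higher and 12 lower. Their medians were -0.11, -0.24 and -0.15, against 0.04 over all genes. Stip1 (-1.68), Fmr1 (1.55), Xrn1 (1.23) and Cnot6 (1.02) differed most among the named genes of the 3 lists.

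Over the 18 libraries, some of the 10 genes followed each other closely in log2 CPM. Dgcr8 and Xpo5 had a Pearson correlation of 0.976, Dgcr8 and Tarbp2 0.930, Drosha and Ago2 0.920 and Xpo5 and Tarbp2 0.905. Xpo5 and Ago1 ran opposite, at -0.978, as did Dgcr8 and Ago1, at -0.968. The inhibitor control, the mimic control and high glucose differed from each other in 74.2% to 79.5% of all genes. These values may therefore largely describe differences between the inhibitor pair, the mimic pair, and high glucose with vehicle. They carry no p, and no clustering of the libraries was run. The genes most like each member by the same measure included Chd2 and Heatr1 for Xpo5 (both 0.996), Slc17a8 and Spata5 for Dgcr8 (both 0.995), and Fam20b and Efna4 for Ago1 (0.992 and 0.991). Golga3 and Cep170 were most like Tnrc6b (0.990 and 0.987), Fbf1 most like Drosha (0.987), and Acsl4 and Mib1 most like Ago3 (0.980 and 0.974). For Dicer1 these were Dynap and Als2cl (0.972 and 0.971), for Tarbp2 Aldh16a1 and Nudt5 (0.971 and 0.964), for Ago2 Fto and Hdac4 (0.965 and 0.962) and for Tnrc6a Rpgrip1l and Atrx (0.960 and 0.958).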

How the data were processed

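RNA was measured in 18 libraries. Reads of stranded mRNA libraries were aligned to GRCm39 with HISAT2, per the labels' protocols, and uniquely mapped reads gave the raw read counts and FPKM values that the authors deposited. The submitters' processing notes also name DESeq2. Which counting tool, annotation release and strand setting they used is not given in the sources used here. Since reads with several places were left out, genes with close copies can be undercounted.

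Counts were tested with edgeR 4.0.16 (R 4.3.3): filterByExpr by group (minimum count 10, minimum total 15), TMM scaling and a quasi-likelihood fit of all 6 groups, which left 12 residual degrees of freedom. P-values were adjusted by Benjamini-Hochberg over 15074 genes, and genes with an adjusted p under 0.05 were called. The SE was derived as the absolute log2 fold change over the square root of the F statistic. The 95% intervals used this SE and a t distribution with 19.14 degrees of freedom. FPKM implied 1 length per gene (implied lengths varied by at most 1.042 times over libraries). The alternatives were RLE and upper quartile scaling, no filter, a replicate block, compared groups only, limma 3.58.1 on log2(FPKM + 1) and log2(FPKM + 0.1) for genes reaching a mean of 1 FPKM, DESeq2 1.42.0 and leaving out each library. The test was also run on simulated counts in which only high glucose held changed genes. That setting is simpler than these data, and no result here rests on it.

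The members and lists were chosen with earlier results of these data known. All 10 members are named. From each list, up to 4 called genes with the largest change and at least 5 CPM are named, otherwise the 2 with the smallest p. The 2 most alike genes per member leave out predicted models. A gene that met this rule is not reported here. Genes singled out in the comparison of neighbours and families (Ago4, Tnrc6c and overlapping genes) were chosen by kinship or position. Annotation came from GENCODE M39.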

Additional observations from a re-analysis of the deposited data

Results flagged for a closer look

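Xpo5 was flagged because the effects of the reagents on it differed. It was 1 call among 10 members, beside 13.2% of all genes called (8.59% lower), so the share was near the background. The mimic effect minus the inhibitor effect was -0.41 on the log2 scale (SE 0.0730, adjusted p = 0.00170 by edgeR's quasi-likelihood test), from a log2 fold change of -0.33 for mimic over mimic control and 0.08 for inhibitor over inhibitor control. All 3 mimic libraries lay below all 3 of their control libraries, while the inhibitor libraries overlapped theirs.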

How the results depend on the processing

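Of the alternatives to called results, 473 kept direction and call and 10 lost the call, which were the 8 of Ago2 in the mimic comparison and 2 of Drosha in mimic control over high glucose; no called result changed sign. In the mimic comparison, 2 genes were called, against 4 with upper quartile scaling, no filter, both limma fits or DESeq2, and 1 to 5 when each library was left out. For the mimic effect minus the inhibitor effect, the count was 1, against 2 without the filter or with both limma fits, and 1 to 3 with a library left out. The causes were not tested.

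Signs turned for uncalled results only. With upper quartile scaling, Dicer1 and Tarbp2 were at 0.024 and 0.0068 with the mimic and at 0.087 and 0.023 in inhibitor control over mimic control, and Tnrc6b was at 0.0025 in inhibitor control over high glucose. With limma on log2(FPKM + 1) and log2(FPKM + 0.1), Dicer1 was at 0.056 and 0.068 with the mimic and at 0.091 and 0.11 between the controls, and Tarbp2 at 0.048 and 0.052 with the mimic and 0.046 and 0.050 between the controls. In these fits the median of all genes shifted by 0.0687 and 0.0719 with the mimic and by 0.129 and 0.133 between the controls. With compared groups only, Dicer1 was at 0.010 with the mimic. The limma value of Ago3 in high glucose was 0.47 with a pseudocount of 1, which understates low genes.

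With a library left out, the log2 fold changes in high glucose ranged from -0.053 to 0.023 for Drosha and -0.059 to 0.079 for Dgcr8. For the mimic they ranged from -0.034 to 0.00062 for Dicer1, -0.068 to 0.0073 for Tarbp2 and -0.023 to 0.078 for Ago1, and for the inhibitor from -0.079 to 0.011 for Ago3 and -0.043 to 0.0043 for Drosha. For the difference of effects they ranged from -0.0058 to 0.042 for Dicer1 and -0.013 to 0.086 for Tarbp2.

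Replicate numbers did not pair the samples, with correlations of -0.174 to 0.103. With a replicate block, the counts were 3 in high glucose, 3 with the mimic, 0 with the inhibitor, 9 and 9 in the mimic and inhibitor controls over high glucose, 8 between the controls and 1 for the difference of effects, the added mimic gene being Ago3 (0.27, adjusted p = 0.0454). Depth limited none of the 10 genes, the lowest of which had 15.7 CPM against a floor of at most 0.0891 CPM.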

Other observations

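Host transcripts of microRNAs were described after the lists were fixed, by the symbol pattern Mir…hg: 11 were in the table and 5 were tested. All 5 were called higher in the inhibitor control than in high glucose, beside 79.5% of all genes called (40.1% higher). All 5 were also called higher in the inhibitor control than in the mimic control, beside 74.2% of all genes (38.5% higher). Mir155hg and Mir99ahg were low, at 0.246 and 0.464 CPM in the inhibitor control. Mir22hg, which hosts miR-22, stood at 35.2 ± 0.246 CPM with the inhibitor, 34.2 ± 0.857 CPM in its control, 7.83 ± 1.92 CPM with the mimic, 5.07 ± 0.215 CPM in its control, 13.2 ± 0.812 CPM in high glucose and a mean of 12.0 ± 0.921 CPM in vehicle (SD, n = 3 each). With the mimic it was called higher than in its control (log2 fold change 0.63, adjusted p = 0.000613), and without mimic replicate 2 the value was 0.40 (adjusted p = 0.00279). Mir100hg was called higher with the mimic too (0.51, adjusted p = 0.00321), and was at 0.59 without mimic replicate 2 (adjusted p = 0.00174). These were 2 of the 5, beside 33.7% of all genes called (15.8% higher). Mir17hg, the host of the miR-17 to miR-92 cluster, stood at 2.76 CPM in the inhibitor control, 0.183 CPM in the mimic control and 0.0281 CPM in high glucose. The last value is below the level that a count of 0 allows. In high glucose against vehicle and in the inhibitor comparison, 0 of the 5 were called, beside 24.2% and 0.00% of all genes.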
